A study of Mus musculus with 9 samples.

Results

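The itaconate synthesis and breakdown genes are the mouse genes for making itaconate, activating it to its coenzyme A ester, splitting the product, and sensing the succinate that accumulates beside it. The 7 genes were taken by symbol from the deposited gene table, which holds 21899 genes: Acod1, Suclg1, Suclg2, Sucla2, Clybl, Auh and Sucnr1. All 7 were found, 5 of them had enough counts to be tested, and Acod1 and Sucnr1 did not. RNA was sequenced from fresh paraventricular thalamus (PVT), a nucleus of the thalamic midline, in mice of wild-type genotype. They had been given phosphate-buffered saline (PBS) and were killed 1 day later, or lipopolysaccharide (LPS), the endotoxin of gram-negative bacteria and a ligand of Toll-like receptor 4, and were killed 1 day or 7 days later. All injections were intraperitoneal, and each of the 3 groups holds 3 libraries. Strain, age, sex and dose are not given in the labels used here, nor do they state whether each replicate is its own animal; p-values therefore reflect the spread among these libraries, part of which may be technical. With no 7 day PBS group analysed here, the effects of day and of treatment cannot be told apart in the comparison of LPS at 7 days with PBS.

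Itaconate is made in mitochondria by aconitate decarboxylase, the product of Acod1, which removes a carboxyl group from cis-aconitate, an intermediate of the tricarboxylic acid (TCA) cycle. Acod1 is known for its steep induction in activated macrophages and microglia through Toll-like receptor, NF-kB and interferon signalling. Succinyl-CoA synthetase, a pair of one alpha and one beta subunit, can join itaconate to coenzyme A. Itaconyl-CoA is then hydrated by the methylglutaconyl-CoA hydratase AUH to citramalyl-CoA, and the lyase CLYBL splits that into acetyl-CoA and pyruvate. Itaconate also inhibits succinate dehydrogenase, and the succinate that builds up is a ligand of the receptor SUCNR1.

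Promoter sequences are shown first for 3 genes whose behaviour the results turn on. These are Acod1, which is induced by LPS in myeloid cells, and Suclg1 and Auh, the members that passed at 7 days against both other groups. Each sequence is the 250 bases upstream of the RefSeq start site, 5′ to 3′ on the strand of the gene, in build GRCm38.p6, whose coordinates differ from those of the deposited table. Capitals mark matches to the motifs named after the sequences.
Acod1 (chr14:103046762-103047011, plus strand): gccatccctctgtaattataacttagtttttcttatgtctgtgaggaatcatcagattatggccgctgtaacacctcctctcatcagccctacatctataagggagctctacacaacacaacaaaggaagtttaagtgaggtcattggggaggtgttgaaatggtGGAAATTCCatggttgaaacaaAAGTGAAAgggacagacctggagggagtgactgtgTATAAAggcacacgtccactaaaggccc
Suclg1 (chr6:73248255-73248504, plus strand): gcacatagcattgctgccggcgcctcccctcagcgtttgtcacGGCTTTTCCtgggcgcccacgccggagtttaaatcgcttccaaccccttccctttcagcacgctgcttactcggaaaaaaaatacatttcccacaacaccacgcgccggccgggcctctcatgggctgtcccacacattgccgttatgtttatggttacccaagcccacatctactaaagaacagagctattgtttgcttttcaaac
Auh (chr13:52929678-52929927, minus strand): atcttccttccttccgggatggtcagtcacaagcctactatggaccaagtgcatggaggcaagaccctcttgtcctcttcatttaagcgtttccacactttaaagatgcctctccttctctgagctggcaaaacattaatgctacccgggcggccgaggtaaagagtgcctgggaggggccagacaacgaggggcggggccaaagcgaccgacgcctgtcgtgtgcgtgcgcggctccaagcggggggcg

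The Acod1 promoter holds a TATA box (TATAAA) at position -28, counted from the start site, an interferon regulatory factor core (AANNGAAA, here AAGTGAAA) at -63 and a kappa B type motif (GGNNNTTCC, here GGAAATTCC) at -85. Among 32851 RefSeq windows from 250 bases before to 50 bases after a start site, searched on both strands, 13.6% held TATAAA, 23.9% the interferon regulatory factor core and 18.5% the kappa B type motif. The Suclg1 sequence holds a kappa B type match (GGCTTTTCC) at -207, and the upstream sequence of Auh holds none of the motifs searched. Suclg2, which passed in no comparison, also held an interferon regulatory factor core match at -126 and a kappa B type match at -158. The NF-kB consensus (GGGRNWYYCC), GAS element (TTCNNNGAA) and C/EBP core (TTNNGCAA) had no match in any member, against 4.51%, 8.3% and 10.8% of all windows. Auh and Clybl share a match to the YY1 core (AANATGGCG) just after the start site, which 2.38% of windows held. Acod1 and Sucnr1 had 2 and 3 CpG dinucleotides in their windows, against 13 to 26 in those of the other 5 members and a median of 7 over all windows. All 7 genes were matched to RefSeq by symbol. The motifs were chosen with the Acod1 sequence in view, and a match is a description, not evidence of binding.

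Levels are given as CPM, the count of a gene relative to the normalised size of its library, and a library held 13211422 to 17210526 counts. Of 14837 genes tested with edgeR, 49.1% passed an adjusted p of 0.05 for LPS at 1 day against PBS, 35.6% for LPS at 7 days against PBS and 56.6% for LPS at 7 days against LPS at 1 day, so a pass is common in these data. The comparisons share libraries, since PBS enters the first pair and each LPS group enters the third. Of the 8 marker genes of PVT and thalamus, none was at 0 in any group, with summed levels of 771 to 783 CPM in PBS, 667 to 668 CPM at 1 day and 640 to 658 CPM at 7 days. These genes moved in both directions: 1 rose and 5 fell against PBS at 1 day and again at 7 days. From 1 day to 7 days 2 rose and 3 fell. Named after their values were seen, Drd2 had means of 87.9, 42.86 and 41.64 CPM in the same order, and Calb2 had 97.09, 73.73 and 159.7 CPM. The groups also differed in transcripts of other regions. Cerebellar and hindbrain markers (10 genes) summed to 209 to 219 CPM in PBS, 167 to 177 CPM at 1 day and 1150 to 1170 CPM at 7 days. Striatal markers (8 genes) summed to 1200 to 1250 CPM, 794 to 816 CPM and 513 to 525 CPM in the same order. The 4 Y-linked genes summed to at most 0.0587 CPM in PBS, against 81.4 to 102 CPM in the LPS libraries. Transcripts of the male chromosome were thus nearly absent from PBS and present in each LPS library. In both comparisons with PBS, LPS treatment and the sex of the animals therefore cannot be told apart.

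Acod1 (ENSMUSG00000022126, chr14:103284413-103294009 in GRCm39, plus strand) was the lowest member but one. Its counts were 1, 0 and 1 in the PBS libraries, 8, 12 and 9 at 1 day after LPS and 0, 3 and 0 at 7 days. In CPM these were 0.0587, 0 and 0.0681, then 0.616, 0.747 and 0.548, then 0, 0.185 and 0. Each library at 1 day lay above every PBS library and every library at 7 days, and PBS and 7 days overlapped. The ratio of group levels at 1 day against PBS was 15.2, with a 95% counting interval of 3.83 to 131, and the exact two-sided permutation test over 3 against 3 libraries gave p = 0.1, the smallest it can give. At 7 days the level was 0.0951 of that at 1 day (interval 0.0185 to 0.307, exact permutation p = 0.1). Against PBS the ratio at 7 days was 1.44 with an interval of 0.165 to 17.3 (exact permutation p = 1), so neither a return to the PBS level nor a lasting difference can be read from so few counts. Replicate 2 alone held the Acod1 counts of the 7 day group, which had 0 counts when it was left out, with upper limits of the ratio of 0.186 against 1 day and 7.61 against PBS. Intervals cover counting error only.

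Acod1 is expressed by myeloid cells, and their markers were set beside it. The 10 neutrophil markers, none of which had enough counts to be tested, summed to 0.352 to 0.477 CPM in PBS, 0.693 to 0.872 CPM at 1 day and 0.118 to 0.432 CPM at 7 days, with Ly6g and Elane at 0 in every group. The 10 monocyte and macrophage markers summed to 12.3 to 14.1 CPM, 14.1 to 15.2 CPM and 10.5 to 14.6 CPM, with no marker at 0 in any group. Of the 4 with enough counts to be tested, 1 rose and 1 fell at 1 day and again at 7 days against PBS. Named after their values were seen, these were Lyz2, lysozyme, with log2 fold changes of 1.13 and 1.76, and Cd163, a scavenger receptor of macrophages, which fell by 0.67 and 1.33.

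The summed level of the 10 microglial markers was 288 to 309 CPM over the 9 libraries, but its members moved in both directions. At 1 day against PBS 2 rose and 4 fell, at 7 days against PBS 0 rose and 1 fell, and from 1 day to 7 days 4 rose and 2 fell. The shares of all tested genes called were 49.1%, 35.6% and 56.6% in these comparisons. Also named after their values were seen, P2ry12, a purine receptor of homeostatic microglia, had a mean of 31.4 CPM in PBS, 15.4 CPM at 1 day and 26.5 CPM at 7 days, and C1qa, a complement subunit, had 23.3 CPM in PBS and 44.0 CPM at 1 day. In bulk tissue, fewer cells of a type and less RNA per cell cannot be told apart, and the part of these cells in the Acod1 counts was not tested.

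**Figure D1:**
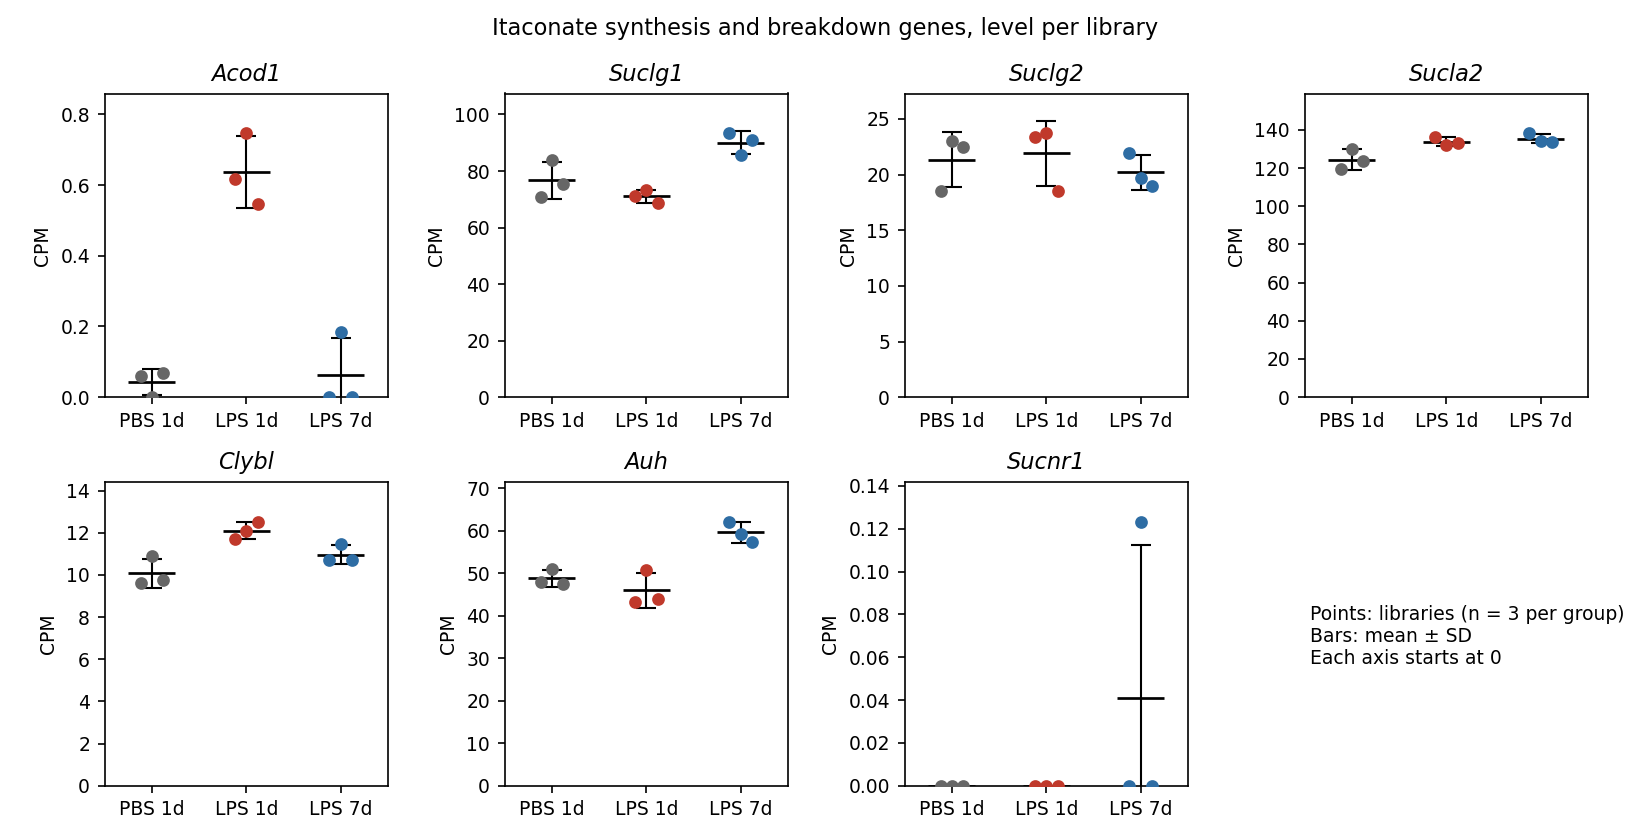
Level of each of the 7 genes in CPM (y axis, starting at 0, with its own scale per gene) in the 9 libraries (points) by group, with the mean (line) and SD (bars, n = 3). Acod1 is highest in the 3 libraries at 1 day after LPS, Suclg1 and Auh are highest in the 3 libraries at 7 days, and Sucnr1 has counts in 1 library only.

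Among the genes known to carry the signal to Acod1 in myeloid cells, more rose than fell at 1 day. Of 13 such genes (Toll-like receptor 4 with its adaptors, interferon receptors, NF-kB subunits and transcription factors such as IRF1 and IRF8), 8 rose, 1 fell and 4 did not pass at 1 day against PBS, with a median log2 fold change of 0.43 against -0.01 over all genes. Without PBS replicate 1, 6 rose and 0 fell; the 9 of 13 called stand against 49.1% of all tested genes. By 7 days 1 was above PBS by the test and 12 did not pass (2 rose without PBS replicate 2, PBS replicate 3 or LPS 7 day replicate 2, and 3 when scaled by library totals), and from 1 day to 7 days 6 fell and 7 did not pass. The 1 and 6 of 13 called here were below the 35.6% and 56.6% of all tested genes called in these comparisons. Cd14, the LPS co-receptor, was at 2.76, 2.21 and 2.73 CPM in PBS, at 9.55, 9.65 and 10.2 CPM at 1 day and at 2.57, 1.73 and 2.90 CPM at 7 days. The 1 day libraries were each above all others, with a log2 fold change against PBS of 1.93 ± 0.18 (SE, edgeR adjusted p = 8.1e-13).

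Irf8, a transcription factor of myeloid cells, rose by 1.06 ± 0.17 (edgeR adjusted p = 6.15e-07). Irf1, named after its values were seen because it is a known activator of Acod1, rose by 0.79 ± 0.18 (edgeR adjusted p = 0.000278). At 7 days against PBS, Cd14, Irf1 and Irf8 had log2 fold changes of -0.09, -0.06 and 0.39 and none passed. The member of this list that rose at 7 days was Nfkb1, an NF-kB subunit, at 0.24 ± 0.07 (edgeR adjusted p = 0.00776).

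**Figure D2:**
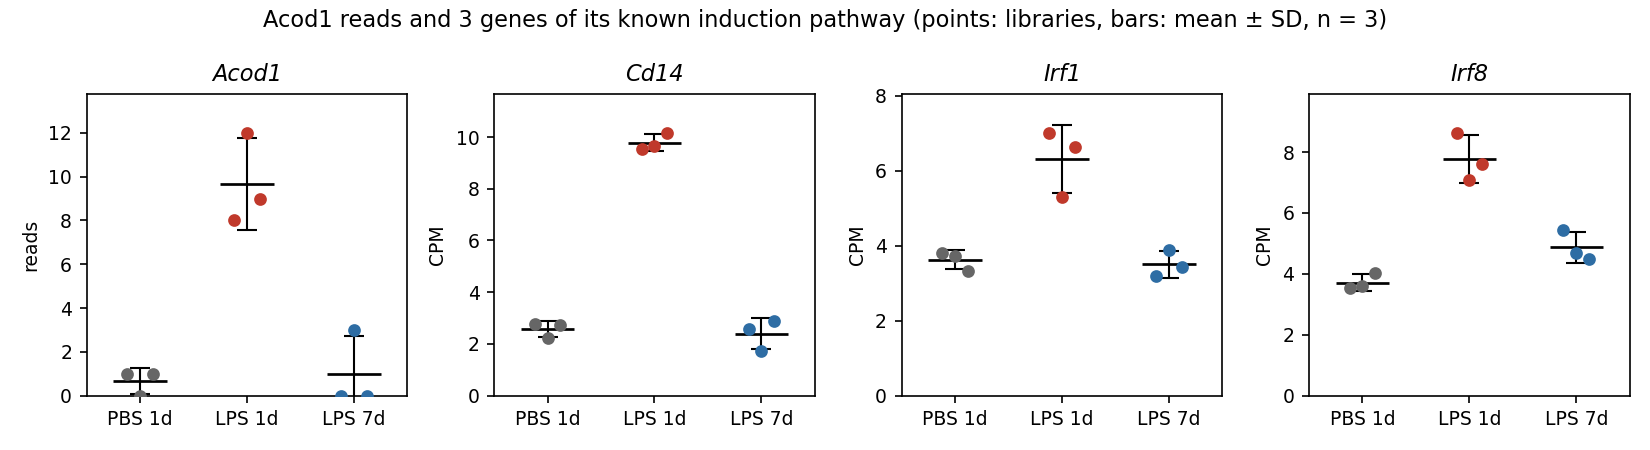
Acod1 reads (counts, left panel) and the levels of Cd14, Irf1 and Irf8 in CPM (y axes from 0, own scale each) in the 9 libraries by group, with mean and SD (n = 3). In every panel the 3 libraries at 1 day after LPS lie above the 3 PBS libraries and the 3 libraries at 7 days.

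The substrate side of the pathway was read from 21 genes of substrate supply and the TCA cycle, of which 2 rose and 7 fell at 1 day against PBS, with a median log2 fold change of -0.07. These 9 of 21 stand against 49.1% of all tested genes called. At 7 days against PBS 10 rose and 2 fell (median 0.12), and from 1 day to 7 days 15 rose and 3 fell (median 0.20), against 35.6% and 56.6% of all genes called, while the median over all genes was -0.01, 0.00 and 0.00. Without PBS replicate 1, 5 rose and 2 fell at 7 days against PBS. The genes with the smallest p at 1 day were Ogdh, a subunit of oxoglutarate dehydrogenase, which fell by 0.31 on the log2 scale, Slc25a1, the mitochondrial citrate carrier, which fell by 0.53, and Fh1, fumarase, which fell by 0.28. Ogdh was at 460.5 to 485 CPM in PBS, at 371 to 396 CPM at 1 day and at 468 to 486.5 CPM at 7 days, so its 1 day libraries lay below both other groups. From 1 day to 7 days these 3 genes rose by 0.31, 0.60 and 0.45. Mdh2, mitochondrial malate dehydrogenase, was an exception at 7 days, where it fell by 0.30 against PBS while Mdh1, its cytosolic relative, rose by 0.15.

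The activating enzyme, succinyl-CoA synthetase, consists of the shared alpha subunit SUCLG1 and either the GTP-forming beta subunit SUCLG2 or the ATP-forming beta subunit SUCLA2. Suclg1 (chr6:73225365-73253894 in GRCm39, plus strand) was at 70.8, 83.9 and 75.6 CPM in PBS, at 71.2, 73.4 and 68.7 CPM at 1 day and at 93.4, 85.7 and 91.1 CPM at 7 days. Every 7 day library was above every other library, and PBS and 1 day overlapped. The rise at 7 days was 0.23 ± 0.06 against PBS (SE, 95% interval 0.12 to 0.34, edgeR adjusted p = 0.000621) and 0.34 ± 0.06 against 1 day (interval 0.23 to 0.45, edgeR adjusted p = 8.5e-07), which is 1.17-fold and 1.27-fold. At 1 day the difference from PBS was -0.11 ± 0.06 (interval -0.22 to 0.01, edgeR adjusted p = 0.108).

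Sucla2 (chr14:73762759-73833582, plus strand) was at 119, 130.1 and 124 CPM in PBS, at 136, 132 and 133 CPM at 1 day and at 138, 134 and 134 CPM at 7 days. Both LPS groups lay above PBS without overlap. The log2 fold change was 0.10 ± 0.05 at 1 day (interval 0.01 to 0.20, edgeR adjusted p = 0.0498) and 0.12 ± 0.04 at 7 days (interval 0.03 to 0.21, edgeR adjusted p = 0.0272). The call at 1 day was lost in each of 7 other settings of scaling, filter, tool or samples (adjusted p 0.0507 to 0.118 with edgeR or DESeq2). It was also lost without any 1 of PBS replicates 1 and 3, the 3 LPS 1 day replicates and LPS 7 day replicates 2 and 3 (edgeR adjusted p 0.0568 to 0.228). The call at 7 days was lost without PBS replicate 1, LPS 7 day replicate 1 or LPS 7 day replicate 2, with edgeR adjusted p of 0.154, 0.0866 and 0.0522. Between 7 days and 1 day the difference was 0.02 ± 0.04 (edgeR adjusted p = 0.758).

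Suclg2 (chr6:95449990-95695781, minus strand) was at 18.5, 23.0 and 22.5 CPM in PBS, at 23.4, 23.7 and 18.6 CPM at 1 day and at 21.9, 19.7 and 19.0 CPM at 7 days. The groups overlapped in all 3 comparisons. The 95% intervals of the fold were 0.896 to 1.17 at 1 day against PBS, 0.829 to 1.09 at 7 days against PBS and 0.808 to 1.06 between the LPS groups (edgeR adjusted p = 0.778, 0.581 and 0.331). Changes beyond those bounds lie outside the intervals, and equal levels are not shown.

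**Figure D3:**
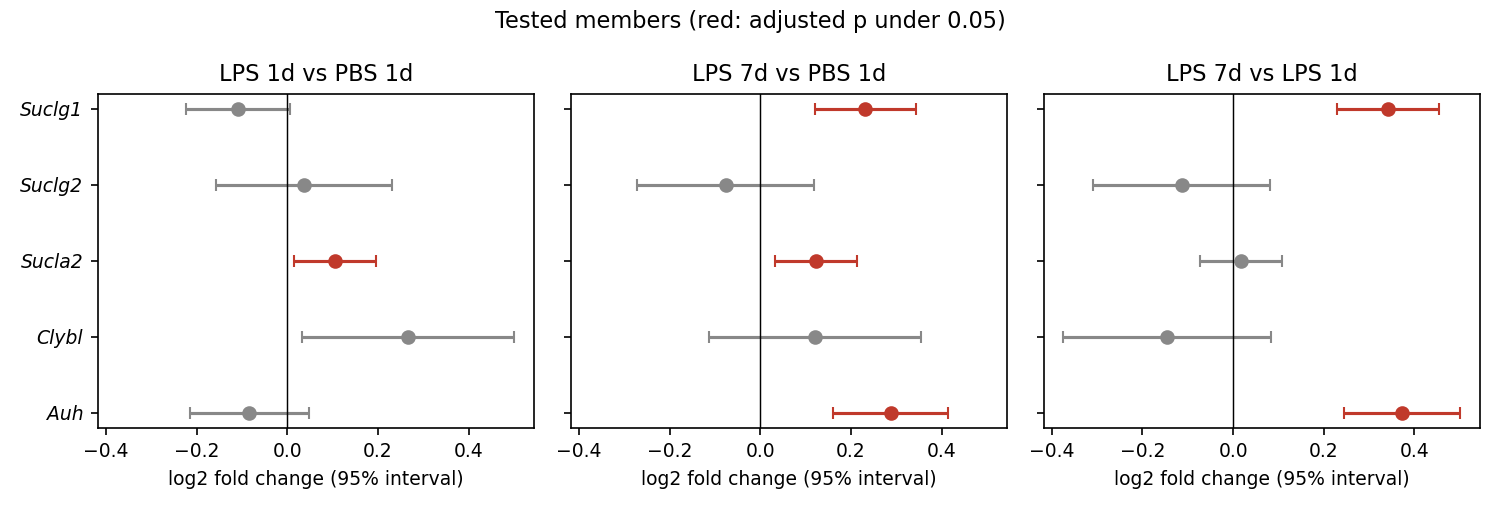
Log2 fold change (x axis, with 95% interval) of the 5 tested members in each of the 3 comparisons. Suclg1 and Auh lie to the right of 0 in both comparisons with the 7 day libraries, Sucla2 is just above 0 against PBS, and the intervals of Suclg2 include 0 in each panel.

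Ratios within a library need no scaling between libraries. The FPKM (a level per length of gene and per size of library) of Sucla2 was 7.48, 6.55 and 6.38 times that of Suclg2 in PBS, 6.75, 6.45 and 8.31 times at 1 day and 7.31, 7.90 and 8.17 times at 7 days. The groups overlapped, and the exact two-sided permutation p of the log2 ratio was 0.6, 0.2 and 0.4 for the 3 comparisons (0.6, 0.3 and 0.48 adjusted over 6 tests). The ATP-forming subunit transcript was thus the larger in each library at the deposited lengths.

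At the deposited lengths, on which its size depends, the FPKM of Suclg1 over the sum of both beta subunits was 0.452, 0.483 and 0.456 in PBS, 0.393, 0.416 and 0.399 at 1 day and 0.513, 0.490 and 0.524 at 7 days. These 3 groups did not overlap: the ratio was lowest at 1 day and highest at 7 days in every library. The ratio at 1 day was 0.868 of that in PBS, that at 7 days 1.10 of PBS and 1.27 of 1 day. Each exact permutation p was 0.1, the smallest that 3 against 3 libraries can give, and 0.2 after adjustment over the 6 tests, so none passed.

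**Figure D4:**
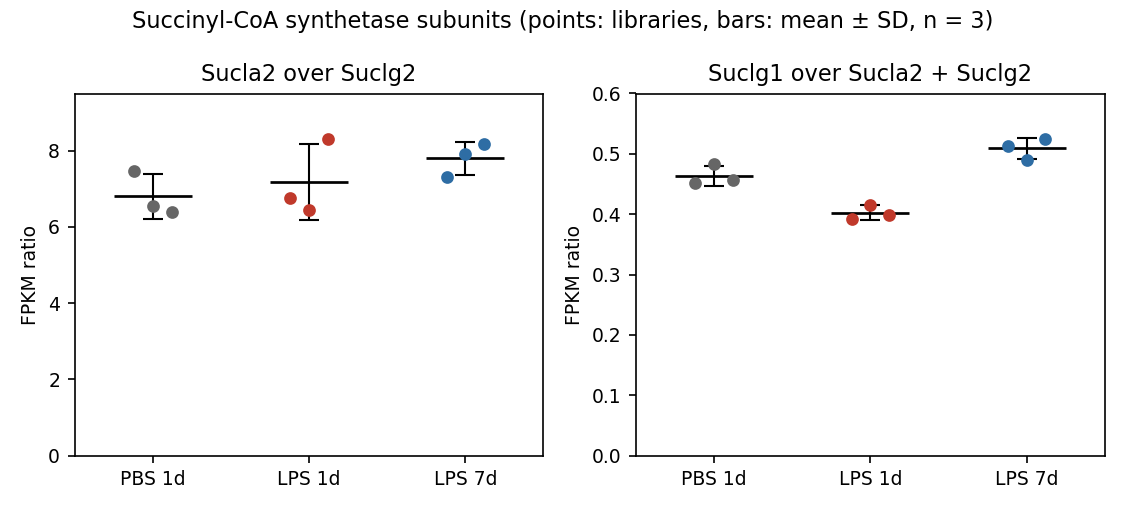
Ratio of Sucla2 to Suclg2 (left) and of Suclg1 to the sum of both beta subunits (right), each a ratio of FPKM within a library (y axes from 0), with mean and SD (n = 3). The left ratios overlap between groups, and the right ratios separate into 0.393 to 0.416 at 1 day, 0.452 to 0.483 in PBS and 0.490 to 0.524 at 7 days.

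Of the breakdown enzymes, Auh moved at 7 days. AUH is better known as the hydratase of leucine breakdown and also binds AU-rich RNA. Auh (chr13:52989155-53083717 in GRCm39, minus strand) was at 47.9, 51.0 and 47.4 CPM in PBS, at 43.2, 50.8 and 43.9 CPM at 1 day and at 62.1, 59.3 and 57.3 CPM at 7 days. Every 7 day library was above the other 6, while PBS and 1 day overlapped. The rise was 0.29 ± 0.06 against PBS (interval 0.16 to 0.41, edgeR adjusted p = 0.000212) and 0.37 ± 0.06 against 1 day (interval 0.24 to 0.50, edgeR adjusted p = 2e-06), or 1.22-fold and 1.29-fold. At 1 day the difference from PBS was -0.08 ± 0.07 (edgeR adjusted p = 0.29).

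Clybl (chr14:122419116-122639646, plus strand), the citramalyl-CoA lyase, was at 9.63, 10.9 and 9.74 CPM in PBS, at 11.7, 12.1 and 12.5 CPM at 1 day and at 10.7, 11.5 and 10.7 CPM at 7 days. The 1 day libraries lay above all PBS and all 7 day libraries. The log2 difference of 0.27 ± 0.12 from PBS (interval 0.03 to 0.50) did not pass, at an edgeR adjusted p of 0.053. The 7 day values overlapped with PBS (0.12 ± 0.12, edgeR adjusted p = 0.453), and the difference between the LPS groups was -0.15 ± 0.11 (edgeR adjusted p = 0.284).

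Oligodendrocyte, cerebellar and hindbrain transcripts were also higher in the 7 day libraries, in which Suclg1 and Auh rose. The 8 oligodendrocyte markers summed to 7200 to 7550 CPM in PBS, 7160 to 7200 CPM at 1 day and 9590 to 10200 CPM at 7 days, with 7 of 8 higher at 7 days than in PBS by the test and 8 of 8 higher than at 1 day. The cerebellar and hindbrain markers, given above, rose in 10 of 10 in both comparisons. Of all tested genes, 16.8% rose and 18.9% fell at 7 days against PBS, and 27.5% rose and 29.1% fell from 1 day to 7 days. The sum of the astrocyte markers (8 genes) was 3630 to 3750 CPM in PBS, 4090 to 4110 CPM at 1 day and 4040 to 4110 CPM at 7 days. It did not share this course, but its members moved in both directions. Named after their values were seen, Slc1a2, the largest of them, had means of 1917, 2227 and 1628 CPM in the same order. Aqp4 had means of 153.8, 142.6 and 250.5 CPM, and Aldoc 650.2, 678 and 1042 CPM. Of the 8 astrocyte markers, 5 rose and 1 fell at 7 days against PBS, and 4 rose and 4 fell from 1 day to 7 days. The 7 neuronal markers summed to 5150 to 5340 CPM over all libraries, a sum over members that moved in both directions. At 1 day against PBS 3 rose and 4 fell, where 24.9% of all tested genes rose and 24.2% fell. At 7 days against PBS 4 rose and 1 fell, and from 1 day to 7 days 5 rose and 1 fell. The part of these transcripts in the rise of Suclg1 and Auh was not tested.

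Counted over the tested members, 1 of 5 rose at 1 day against PBS, where 24.9% of all tested genes rose and 24.2% fell. In the comparison of 7 days with PBS 3 of 5 rose, where 16.8% of all genes rose and 18.9% fell, and scaled by library totals alone 3183 genes rose and 2327 fell in place of 2489 and 2800. From 1 day to 7 days 2 of 5 rose, where 27.5% rose and 29.1% fell. No member fell in any comparison. At 1 day 2 of 5 members lay above PBS without overlap and none below, where 27.4% of all tested genes lay above and 27.1% below. At 7 days against PBS 3 lay above and none below (21.5% and 22.7% of all genes), and from 1 day to 7 days 2 lay above and 1, Clybl, below (29.5% and 31.1%). In either direction, 54.5%, 44.2% and 60.6% of all tested genes had groups without overlap. The median log2 fold change of the members was 0.04, 0.12 and 0.02. The counts are too small to set the members apart from the background.

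Genes next to the breakdown enzymes were read from lists around them. In leucine breakdown, the pathway in which AUH acts, 1 of 10 genes rose and 4 fell at 1 day, 2 rose at 7 days against PBS and none fell (1 without PBS replicate 1 or LPS 7 day replicate 1), and 4 rose and 2 fell from 1 day to 7 days. In all, 5, 2 and 6 of 10 were called, near or under the 49.1%, 35.6% and 56.6% of all tested genes. Mccc1, a subunit of the carboxylase that makes the substrate of AUH, was among them: it rose by 0.62 ± 0.09 at 1 day (edgeR adjusted p = 5.76e-08) and fell by 0.49 from 1 day to 7 days.

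The propionate and vitamin B12 pathway is of interest because itaconyl-CoA is known to inactivate the B12-dependent methylmalonyl-CoA mutase. Of 9 genes, 3 fell at 1 day and none rose (median -0.17), fewer called than the 49.1% of all tested genes: Mmut, the mutase itself, by 0.33, Cd320, the receptor that takes up B12 with its carrier, by 0.57, and Mmaa, which loads the mutase with its cofactor, by 0.32. Against PBS, 2 rose and 2 fell at 7 days, among them Pcca, a propionyl-CoA carboxylase subunit, at 0.28 ± 0.08 (edgeR adjusted p = 0.0028), and Mmab, which adenosylates B12, which fell by 0.25. From 1 day to 7 days 5 rose and 1 fell, where 56.6% of all genes were called. At 7 days against PBS, where 35.6% were called, 1 rose and 1 fell without PBS replicate 2, PBS replicate 3 or LPS 7 day replicate 2.

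Transport and delivery genes were read from 8 genes. At 1 day 3 fell and none rose, fewer called than the 49.1% of all tested genes: Hps4 by 0.58, Hps1 by 0.30 and Slc25a10, the mitochondrial dicarboxylate carrier, by 0.29. The Hps1 call was lost without any 1 of PBS replicates 1 and 3 and LPS 1 day replicates 1 and 2 (edgeR adjusted p 0.056 to 0.133). HPS1 and HPS4 form the exchange factor of RAB32, through which itaconate is delivered to vacuoles holding bacteria. At 7 days against PBS Hps1 fell by 0.48 and the other 7 did not pass, and from 1 day to 7 days Hps4, Slc25a10 and Slc13a3, a plasma membrane carrier of dicarboxylates, rose by 0.66, 0.32 and 0.20. The Slc13a3 call was lost without any 1 of LPS 1 day replicates 1 and 2 and LPS 7 day replicates 1 and 3 (edgeR adjusted p 0.0557 to 0.186). Without LPS 1 day replicate 2, Slc25a10 passed in neither comparison (edgeR adjusted p = 0.113 and 0.067), which left 1 gene of this list falling at 1 day and 1 rising from 1 day to 7 days. The calls at 7 days, 1 and 3 of 8, were also below the 35.6% and 56.6% of all genes.

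**Figure D5:**
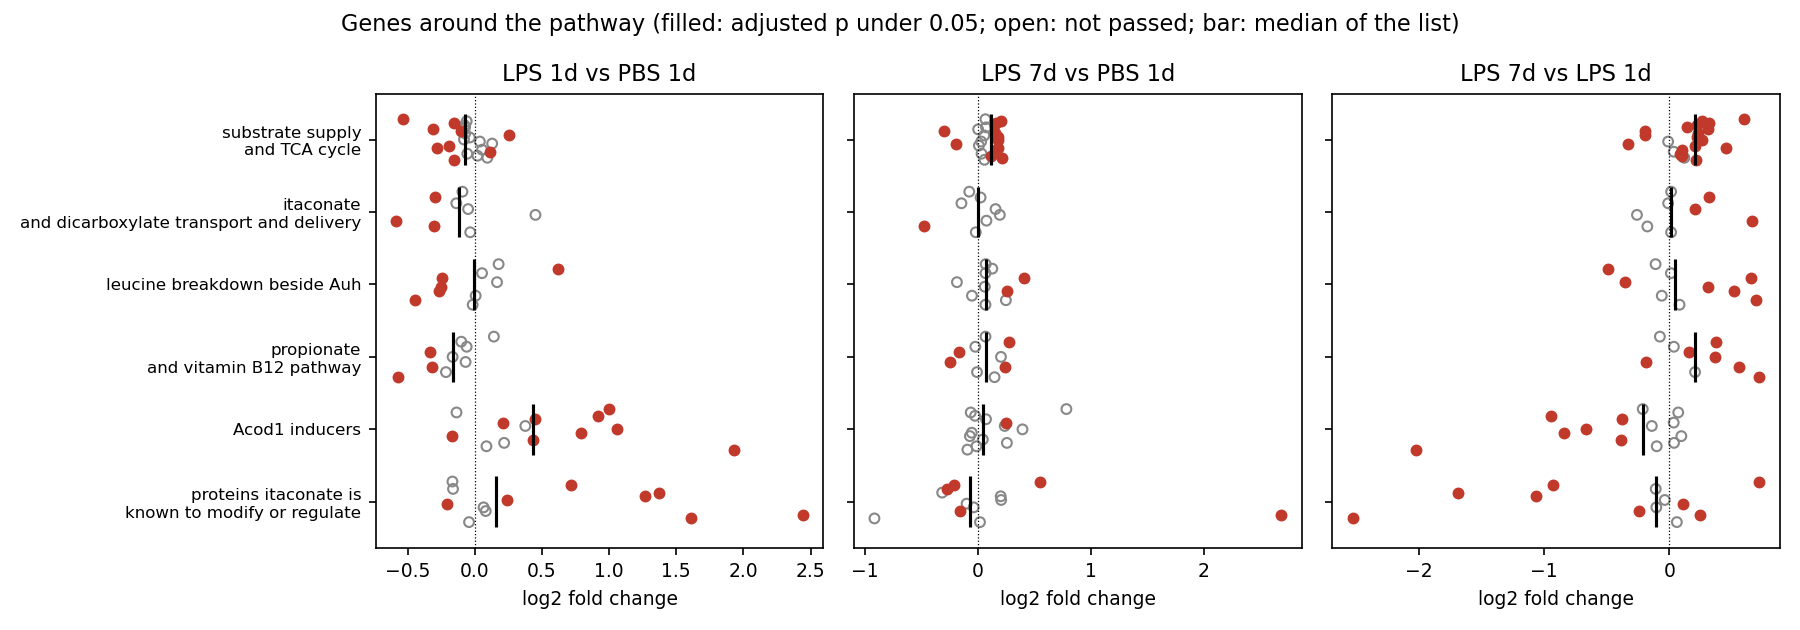
Log2 fold change (x axis, own range per panel) of each tested gene of the 6 lists around the pathway in the 3 comparisons; filled points passed an adjusted p of 0.05, open points did not, and the bar is the median of the list. The genes that induce Acod1 have a median of 0.43 at 1 day, and the substrate and TCA cycle genes have a median of -0.07 at 1 day and 0.12 at 7 days.

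The succinate receptor was at or below detection. Sucnr1 (chr3:59989290-59994987 in GRCm39, plus strand) had 0 counts in 8 of 9 libraries and 2 counts in LPS 7 day replicate 2 (0.123 CPM). A count of 0 allows up to 0.176 to 0.231 CPM in a library, so no difference between groups was detectable at this depth, and no fold is given. Oxgr1, the related receptor of 2-oxoglutarate, which has also been described as a receptor of itaconate, had 5, 10 and 15 counts in PBS, 15, 19 and 26 at 1 day and 4, 5 and 8 at 7 days. In CPM the 1 day libraries were above all others, and it rose by 1.04 ± 0.42 on the log2 scale (edgeR adjusted p = 0.0373) and fell by 1.91 from 1 day to 7 days (SE 0.47, edgeR adjusted p = 0.000518). The rise at 1 day did not pass with DESeq2 (adjusted p = 0.0863), without the filter (edgeR adjusted p = 0.0557), or without any 1 of PBS replicates 1 and 2 and LPS 1 day replicates 2 and 3 (edgeR adjusted p 0.0533 to 0.233).

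Of 12 genes for proteins that itaconate is known to modify or regulate, 6 rose and 1 fell at 1 day, 2 rose and 3 fell at 7 days against PBS (2 and 1 without PBS replicate 3), and 3 rose and 5 fell from 1 day to 7 days. The shares of all tested genes called were 49.1%, 35.6% and 56.6%, against 7, 5 and 8 of these 12. Nfkbiz, an NF-kB cofactor whose induction itaconate limits, was at 4.87 to 6.74 CPM in PBS, 12.8 to 15.3 CPM at 1 day and 5.91 to 7.22 CPM at 7 days, and its rise at 1 day was 1.27 ± 0.14 (edgeR adjusted p = 6.16e-11). Tet2, a DNA dioxygenase that itaconate inhibits, rose by 0.72 ± 0.06 at 1 day (edgeR adjusted p = 1.96e-15) and fell by 0.93 from 1 day to 7 days. Tfeb, a regulator of lysosomal genes, did not pass at 1 day and rose by 0.55 ± 0.11 at 7 days against PBS (edgeR adjusted p = 2.92e-05).

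Per length, the members covered a wide range of levels. Mean FPKM over the 9 libraries was 32.9 for Sucla2 (29.6 to 35.8), 17.2 for Suclg1 (14.6 to 20.9), 7.65 for Clybl (6.60 to 8.53), 5.38 for Auh (4.43 to 6.69) and 4.57 for Suclg2 (3.94 to 5.05). Acod1 followed at 0.0929 (0 to 0.280) and Sucnr1 at 0.00853. Sucla2 was thus above Suclg1 and Suclg1 above Clybl in every library, while Auh and Suclg2 overlapped, with Auh the higher in 8 of 9. Sucla2 was at or above 94.5% of all genes in the table, Suclg2 at or above 63.3% and Acod1 at or above 28.8%.

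This order depends on the gene length. The deposited lengths equal the union of all annotated exons for each of the 7 genes, which for Auh is 9580 bases against 1320 in its principal transcript, and for Suclg1 4617 against 1519. With the principal transcript length, chosen after seeing the data, mean FPKM was 58.9 for Sucla2, 52.3 for Suclg1, 39.0 for Auh, 8.98 for Clybl and 6.28 for Suclg2, so that Auh was above Clybl in all 9 libraries in place of none. In PBS the principal lengths gave mean FPKM of 50.27 for Suclg1, 55.53 for Sucla2 and 6.307 for Suclg2. The ratio of Suclg1 to both beta subunits is thus higher than at the deposited lengths. The comparisons between groups within 1 gene do not use the length.

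Genes with the most similar course over the 9 libraries were found by Pearson's r of log2 CPM over 14061 genes, as a description, since libraries of 1 group share treatment, day and the regional transcripts above. For Auh these were Hibadh, an enzyme of valine breakdown (r = 0.985), Sri (0.980) and Rmdn3 (0.967), and for Suclg1 they were Psmc5, a proteasome subunit (0.982), Scly (0.974) and Nkx2-9 (0.971). Sucla2 was nearest to Zfp954 (0.977), Dld, the shared lipoamide dehydrogenase of the mitochondrial oxoacid dehydrogenases (0.973), and Srsf3 (0.972), and Clybl to Gtf2b (0.978), Rnf223 (0.962) and Styx (0.961). Acod1 was nearest to Trub2 (0.988), Inpp5k (0.986) and Prex2 (0.985), with 511 genes above 0.9, whereas Suclg2 had 1 gene above 0.9, Vars (0.913), followed by Vdac1 (0.898) and Cpped1 (0.885).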

How the data were processed

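RNA libraries of PVT tissue were made with a TruSeq kit from Trizol extracts, per the labels. TopHat2, HISAT2 and HTSeq and the build GRCm39 are named in the submitters' processing notes; for their versions, their roles and the strandedness of counting, the sources used here give nothing. The deposited count table holds raw counts per gene that the authors made. The deposited FPKM are counts the authors scaled by gene length and library total; recomputing them gave a largest relative difference of 1.6e-07. Lengths and positions (other columns) were used as deposited.

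Counts were fitted with edgeR 4.0.16 (R 4.3.3) by quasi-likelihood over all 9 libraries with 1 mean per group, TMM factors (0.982 to 1.03) and filterByExpr, which left 14837 genes. Tests were two-sided, with Benjamini-Hochberg adjustment over all tested genes and a threshold of 0.05. The SE is the log2 fold change divided by the square root of F. The prior degrees of freedom were 43.4, so the spread of a gene is drawn toward the trend. Acod1 and Sucnr1, under the filter, were compared by conditional binomial intervals at 95% and exact permutation; 0 counts allow up to 3. Marker sums use TMM-scaled CPM. Alternatives were DESeq2 1.42.0, other scalings, no filter, only the groups compared, a replicate block and leaving out each library. The code was tested on simulated data. No 2 libraries of a group agreed within sampling noise: chi-square divided by its degrees of freedom was 2.02 to 3.68.

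The members and gene lists were chosen with earlier results of these data known. Named genes are all members, Oxgr1, up to 3 genes per list and comparison by p-value among those that passed, and, for each member but Sucnr1, the 3 genes with the highest r among those with a mean of at least 1 CPM in a group (log2 CPM with a prior count of 2); the members themselves need not reach it. A few genes named by this rule are left out of the text.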

Additional observations from a re-analysis of the deposited data

Results flagged for a closer look

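The log2 fold changes of Suclg1 and Auh against PBS differed between the 2 days. Against the shared PBS libraries, the log2 fold change of Suclg1 was -0.11 at 1 day and 0.23 at 7 days, and the difference of 0.34 between the days passed edgeR's test of LPS at 7 days against LPS at 1 day (adjusted p = 8.5e-07), with 3 of 3 libraries at 7 days above all 3 at 1 day. For Auh the log2 fold changes were -0.08 and 0.29, and the difference of 0.37 passed the same test (edgeR adjusted p = 2e-06), also with 3 of 3 libraries above. With no 7 day PBS group, day alone and a changing response to LPS cannot be told apart in these differences. In each comparison with PBS, treatment and sex also cannot be told apart, as given above. Oligodendrocyte and hindbrain markers were higher in the same 7 day libraries, and their part in the difference was not tested.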

How the results depend on the processing

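Fold changes of the 5 tested members kept direction under every alternative run, except that of Suclg2 at 1 day against PBS (0.04, not passed), which fell as low as -0.06 when a single library was left out. The calls of Suclg1 and Auh at 7 days against both other groups held in all of them. Without each single library, edgeR adjusted p for Suclg1 ranged from 4.54e-05 to 0.0164 at 7 days against PBS, and for Auh from 0.000169 to 0.00217. The number of members called at 1 day against PBS, 1 (Sucla2), was 0 with DESeq2 size factors, library totals, upper-quartile factors, the DESeq2 Wald test, only the 2 groups compared and the replicate block, and ran from 0 to 2 without single libraries. Without PBS replicate 2, Clybl passed at 1 day (0.32, edgeR adjusted p = 0.041), and without PBS replicate 1, Suclg1 did (-0.17, edgeR adjusted p = 0.0187). Without the filter, Acod1 passed at 1 day against PBS (3.69 ± 0.99, edgeR adjusted p = 0.00087) and from 1 day to 7 days (-3.23 ± 0.92, edgeR adjusted p = 0.00149) and Sucla2 did not at 1 day (edgeR adjusted p = 0.0566); the prior degrees of freedom were then infinite, so the spread of single genes did not enter. Over the 58 combinations of a named list gene and a comparison, 901 of 927 values kept their call, 26 lost it and 0 reversed. Where a call was lost, the cause was not tested. Replicate numbers did not pair the samples: same-numbered libraries correlated at -0.0232 to 0.027, and 4 of 9 libraries correlated best with their own number. With the replicate block, 7142, 5139 and 8269 genes were called, and 0, 3 and 2 members. Sucnr1 could give no ratio. Depth limits Acod1 and Sucnr1, whose counts allow only wide intervals.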

Other observations

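Gapdh, a glycolytic enzyme that itaconate is known to modify, was at 38.8 to 43.3 CPM in PBS, 212 to 233 CPM at 1 day after LPS and 221 to 300.2 CPM at 7 days. The rise was 2.44 ± 0.07 at 1 day and 2.69 ± 0.07 at 7 days on the log2 scale (edgeR adjusted p = 4.38e-34 and 1.95e-36). Gapdh has many near-identical pseudogenes in the mouse genome that can share its reads, so these values are uncertain.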
